A study of Mus musculus with 12 samples.

Results

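Aminoacyl-tRNA synthetases, the enzymes that load each tRNA with its amino acid, were followed from transcript to ribosome in liver, comparing wild-type mice (WT) with mice that lack Mettl5 (KO). Members were chosen by name alone, as all genes whose symbol is one capital letter followed by ars, ars1 or ars2, with Eprs, Farsa and Farsb added. The rule found 36 of the 10607 genes in the table that holds both assays. Of these, 20 encode cytosolic enzymes and 16 have names ending in 2 and encode mitochondrial enzymes. Lars2, one of the 16, is described apart because of its input reads, which leaves 15 mitochondrial members. Pars2, the mitochondrial prolyl enzyme, had 0 to 12 input counts per library and is not in that table.

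METTL5 places N6-methyladenosine on 18S rRNA, and the study asked whether its loss changes translation. The WT group was 3 wild-type mice and the KO group 3 Mettl5-null littermates. Mice with the same replicate number were taken as 1 litter, which gives 1 mouse of each genotype in each of 3 litters. The null allele came from a floxed exon 2 removed in the whole body by Cre recombinase under the CMV promoter, from the line B6.C-Tg(CMV-cre)1Cgn/J. The founder stem cells were F1 hybrids of C57bl/6 and 129S6, and the mice were later backcrossed to B6. Age and sex were not used here. The lysis buffer of both groups contained cycloheximide, which stalls ribosomes on the mRNA. From each liver came an input library, RNA-seq of the lysate as a measure of transcripts, and a footprint library of ribosome-protected fragments (RPF), the stretches of mRNA covered by a ribosome during nuclease digestion. Translation efficiency (TE) is RPF over input.

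The 6 input libraries held 8326325 to 11825643 counted read pairs, of which the 18S gene took 45.8% in KO replicate 1 and 59.1% to 63.8% in the other libraries. Mettl5 itself had 21, 18 and 12 input counts in WT litters 1 to 3 and 13, 7 and 5 in KO, a log2 difference of −1.59 with SE 0.46 (adjusted p = 0.999, edgeR), and no KO value exceeded its littermate's. Hepatocyte markers summed to 77655 to 96309 CPM of the input counts outside rRNA and Lars2 in WT and 79295 to 90767 in KO. Stellate cell and fibroblast markers, 6 in all and none at 0, summed to 262 to 277 CPM in WT and 305 to 392 in KO, without overlap. The 6 lymphocyte markers summed to 0.963 to 2.61 CPM in WT and 2.92 to 3.37 in KO, again without overlap. Marker sums overlapped between genotypes for Kupffer cells and macrophages (240 to 344 CPM in WT, 212 to 349 in KO) and for liver endothelium (313 to 380, 313 to 422). They also overlapped for cholangiocytes (23.5 to 31.0, 24.4 to 32.5) and red blood cells (164 to 232, 152 to 194). The lymphocyte sums rest on few reads, as the counts outside rRNA and Lars2 numbered 2077408 to 4745069 per library. Among single genes, 3.65% lay higher in KO in input without overlap. The part of the stellate cell or lymphocyte marker set in the differences below was not tested. Of 7 exocrine pancreas markers, 5 were at 0 in every library.

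Synthetases fall into 2 structural classes by the fold of their catalytic domain, class I and class II. In the cytosol, part of them sit in a multisynthetase complex (MSC), held together by scaffold proteins, and the rest act free. The mitochondrial enzymes are made from separate nuclear genes, translated in the cytosol and imported, and they serve the small set of proteins encoded by mitochondrial DNA. Gars and Kars each make both a cytosolic and a mitochondrial form from a single gene. By this grouping 8 cytosolic members belong to the MSC and 12 are free, and 19 of the 36 are class I and 17 class II, with Eprs, which joins a glutamyl and a prolyl enzyme in a single protein, counted once under class I.

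The start codons of the members with the highest and lowest TE in WT livers, with input per kb of annotated exon, are shown first, because the bases around a start codon are the part of an mRNA that the small ribosomal subunit reads when it begins. Each line gives 9 bases before the start codon, the start codon in capitals and the base after it, from the longest coding transcript of the GENCODE annotation on GRCm38.
Eprs, highest TE of the cytosolic members: tcctgggagATGg
Dars, next highest cytosolic: agtgtcctgATGc
Vars, next to lowest cytosolic: tgcacagccATGt
Gars, lowest cytosolic: ggcgtgctcATGc
Mars2, highest TE of the mitochondrial members: gctgtcaccATGc
Nars2, next highest mitochondrial: ggtctcgccATGc
Aars2, next to lowest mitochondrial: ggagctaagATGg
Vars2, lowest mitochondrial: acactcccgATGc
A purine at position −3 (counted back from the A of the start codon) was absent in Dars, near the top, and in Gars and Vars2, at the bottom. Over the members, a purine stood at −3 in 75% of 20 cytosolic and 86.7% of 15 mitochondrial start sites, Lars2 included and Yars2 left out for want of a context, against 86.4% of 10251 genes of the table. A G directly after the start codon was found in 55%, 53.3% and 53.3% of the same sets. The cytosolic class, the more abundant as given below, had the lower share of purines at −3.

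Promoters were searched for TGATGNAA on both strands, the C/EBP-ATF response element through which ATF4 is known to act on genes of amino acid supply, in RefSeq windows of 250 bases before to 50 bases after the gene start (GRCm38.p6). It was the only motif searched. Promoters were matched for 13 cytosolic and 14 mitochondrial members. Unmatched members included Cars, Hars, Lars, Nars, Rars, Vars, Wars and Hars2. The element was present in 5 of 13 cytosolic promoters (38.5%) and in 0 of 14 mitochondrial ones, against 4.51% of 27025 genes with a RefSeq promoter, counting any promoter of a gene. Of 18 matched genes of a list of amino acid response genes, 6 held it (33.3%). The matches are printed in the direction of the gene with the element in capitals.
Aars, chr8:111033722-111033745, plus strand: cttgagcaTTGCATCAgccgagcc
Aars, chr8:111033843-111033866, plus strand: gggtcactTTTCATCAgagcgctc
Gars, chr6:55037963-55037986, plus strand: ctgcgctaTTTCATCAtgcaccgg
Iars, chr13:49682129-49682152, plus strand: tgtcagtaTTGCATCAcctccaga
Tars, chr15:11399658-11399681, minus strand: gagtcccgTTGCATCAgctggtta
Yars, chr4:129189898-129189921, plus strand: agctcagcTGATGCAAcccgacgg
The Yars match spans its start codon. A match is a run of letters and says nothing about binding.

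In WT livers the cytosolic synthetases were the more abundant class at both steps. Their median input level per kb of exon was 5.23, 5.28 and 5.36 on the log2 scale of normalized reads in litters 1 to 3, and that of the 15 mitochondrial members was 3.37, 3.35 and 3.70. The gap between the class medians was 1.82 ± 0.14 log2 units (SD, n = 3 mice), 3.53-fold, in WT and 1.88 ± 0.25, 3.69-fold, in KO. In footprints per kb of coding sequence the gap was 2.29 ± 0.31 or 4.88-fold in WT and 1.95 ± 0.15 or 3.86-fold in KO. With the members that had at least 10 reads in every library it was 1.41 in input and 1.30 in RPF in WT, and 1.39 and 1.17 in KO, so which assay had the wider gap depended on the members kept. In all 6 mice the cytosolic median lay above the median gene of the table and the mitochondrial input median below it. The tissue was bulk liver, so fewer cells of a type and less RNA per cell cannot be told apart. Classes are described here and not tested, since genes are not replicates.

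**Figure D1:**
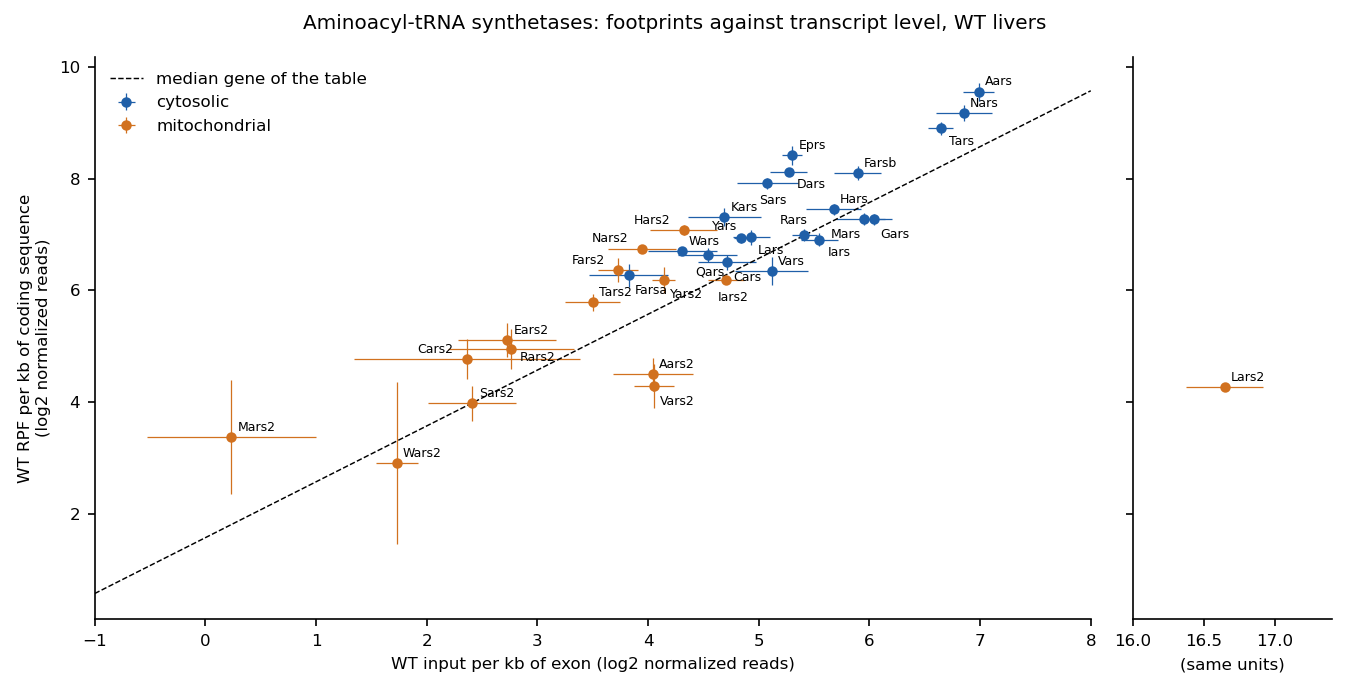
RPF per kb of coding sequence against input per kb of exon, both as log2 of normalized reads, for the synthetases in WT livers, 1 mitochondrial member not drawn (points, mean of 3 mice; bars, SD; blue, cytosolic; orange, mitochondrial). The dashed line marks the median gene's ratio; Aars, Nars and Tars stand at the top right, Vars2 and Aars2 lie below the line and Lars2 lies far to the right at a footprint level of 4.27.

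Aars, Nars and Tars, the alanyl, asparaginyl and threonyl enzymes, had the highest footprint levels, 9.56, 9.18 and 8.90 log2 RPF per kb in WT, followed by Eprs at 8.42. Farsa, the catalytic subunit of phenylalanyl-tRNA synthetase, was the lowest cytosolic member at 6.27. The cytosolic members thus spanned 9.75-fold in RPF per kb. The mitochondrial members ran more widely, from Wars2 at 2.91 to Hars2 at 7.07. In this order 12 of 19 neighbouring cytosolic pairs and 10 of 14 mitochondrial pairs overlapped over the 3 WT mice, so single steps in it are mostly within the spread. Hars and Hars2, the cytosolic and mitochondrial histidyl genes, overlap head to head on opposite strands. Input was counted by strand; whether footprints were is not given in the sources used here.

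Paired by amino acid, the cytosolic gene exceeded its mitochondrial partner in WT input per kb in 16 of 16 pairs (15 with transcript length) and in RPF per kb in 15 of 16, with Farsa and Farsb each paired with Fars2 and with Lars and Lars2 left out. The median ratio was 5.53-fold in input and 4.79-fold in RPF. The widest RPF ratio was between Aars and Aars2, 33.4-fold (log2 5.06 ± 0.15, SD, n = 3), and the narrowest above 1 between Hars and Hars2, 1.30-fold. Farsa was the exception, at 0.935 times Fars2. Farsa and Farsb encode subunits of a single enzyme that contains them in equal number, yet Farsb exceeded Farsa in RPF per kb by 1.49, 1.90 and 2.11 log2 units in WT litters 1 to 3 (3.56-fold) and by 2.21, 2.15 and 1.96 in KO (4.30-fold). Input per kb of exon was also higher for Farsb, 4.20-fold in WT and 4.71-fold in KO, and 2.17-fold and 2.44-fold with transcript length in place of exon length. The TE difference of the subunits (Farsb minus Farsa) took its sign from that length, −0.24 ± 0.14 log2 in WT with exon length and 0.71 ± 0.14 with transcript length (SD, n = 3).

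TE per length, RPF per kb over input per kb, lay close in the classes. Relative to the median gene of the same mouse, the cytosolic median was 0.54, 0.66 and 0.59 log2 units in WT and 0.67, 0.53 and 0.38 in KO, and the mitochondrial median 0.66, 0.39 and 0.56 in WT and 0.42, 0.31 and 0.38 in KO. The class difference was 0.06 ± 0.20 in WT and 0.16 ± 0.14 in KO (SD, n = 3 each). It was 0.39 ± 0.22 and 0.27 ± 0.22 when input was taken per kb of the single transcript with the longest coding sequence in place of all annotated exons. Both medians lay above 0, the level of the median gene, in all 6 mice by exon length. TE was higher for the cytosolic partner in 7 of the 16 pairs with exon length and in 12 with transcript length.

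Eprs had the highest cytosolic TE, 1.32, 1.74 and 1.57 in WT and 1.81, 1.32 and 1.30 in KO. Dars, the aspartyl enzyme of the MSC, followed with 1.34, 1.10 and 1.42 in WT and 1.28, 1.37 and 1.15 in KO. Genotypes overlapped for both genes. Eprs carries 18102 bases of annotated exon for a coding sequence of 4536, and its WT mean of 1.54 became 0.29 with transcript length. Gars, the glycyl enzyme, was lowest by exon length with −0.50, −0.32 and −0.21 in WT and −0.35, −0.39 and −0.52 in KO. Vars, the valyl enzyme, had −0.20, −0.48 and −0.33 in WT and −0.23, 0.05 and −0.33 in KO. With transcript length Cars, Vars and Gars were the 3 lowest (−0.19, −0.18 and −0.10), and Aars and Dars the highest (0.94 and 0.91). All 19 neighbouring pairs in the cytosolic TE order by exon length overlapped. Eprs, Dars, Gars and Vars were picked by these same WT values, so the distance between them is not a further result.

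Among the mitochondrial members, Mars2, the methionyl enzyme, was highest with 1.35, 1.93 and 1.43 in WT and 1.02, 1.54 and 2.81 in KO, from only 4 to 28 input reads per library. Nars2, the asparaginyl enzyme, had 0.86, 1.36 and 1.48 in WT and 0.98, 1.20 and 1.40 in KO. Both stood above the median gene in every mouse, and with transcript length Hars2, at 1.45, passed Nars2, at 0.98. Vars2 was lowest with −1.93, −1.12 and −0.98 in WT and −1.17, −0.85 and −0.63 in KO. Aars2 had −1.76, −0.66 and −0.95 in WT and −1.15, −0.56 and −0.27 in KO. Vars2 and Aars2 were below the median gene in every mouse, their WT means with transcript length were −1.02 and −0.999, and their RPF differences between genotypes are given further on.

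Lars2, the mitochondrial leucyl enzyme (chr9:123366927-123462666, plus strand), stood outside this picture in input only. Its input counts were 756631, 613039 and 840192 in WT litters 1 to 3 and 959202, 933931 and 837090 in KO, 7.36% to 8.63% of all counted pairs. It ranked 2 among all genes in every input library, after the 18S gene. The other 15 mitochondrial members together had 525 to 1371 input reads per library. Its footprints were ordinary, with 61, 61 and 99 RPF reads in WT and 48, 87 and 31 in KO. Per kb its RPF level of 3.45 to 4.30 log2 units lay within the range of the other mitochondrial members in each mouse. Its TE per length, −13.7 to −15.0 log2 units from the median gene, was the lowest of all genes of the table in all 6 mice. The 2 assays were not processed alike. The study's methods remove rRNA reads from RPF before mapping and give no such step for input reads. Its RPF level is per kb of coding sequence and its input level per kb of all exons. The part of these differences in the contrast was not tested.

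**Figure D2:**
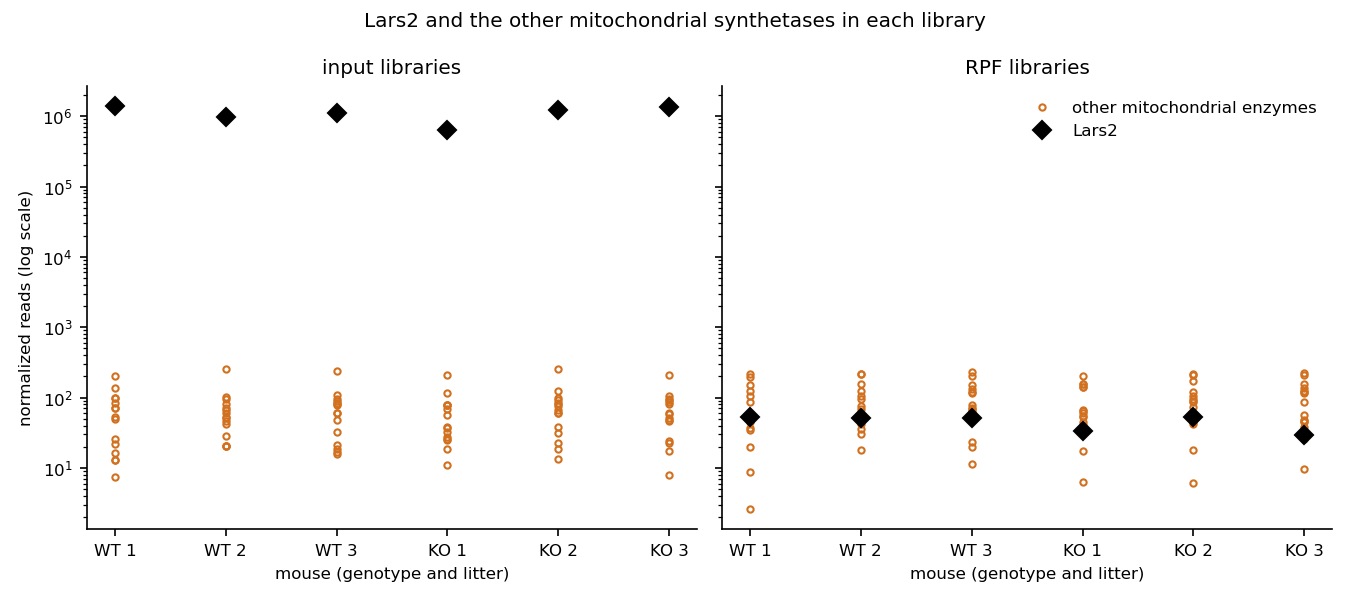
Normalized reads (log axis) of Lars2 (diamonds) and of the other 15 mitochondrial synthetases (circles) in the 6 input and 6 RPF libraries. Lars2 lies 700 to 1441 times above the sum of the other members in every input library and among them in every RPF library.

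Part of the last exon of Lars2 (chr9:123461499-123462666), beyond its stop codon, is not unique in the genome. A stretch of 384 bases, chr9:123461800-123462183, held 260 start positions of 25-base words with exact copies on 11 other chromosomes of GRCm38. Of the genes in the count table, 2 contain such copies within exons, Gm15564 on chromosome 16 and AA474408 on chromosome 7. They ranked 7 and 29 by total input, with 64353 to 90248 and 8776 to 12559 counts per library. Gm15564 held 27 of the words and AA474408 held 44. The same 30 bases of the 3 genes are set side by side here, with the bases shared by all 3 in capitals. They were picked to end with a word that Lars2 and Gm15564 share, so their match is no measure of how alike the genes are elsewhere.
Lars2, chr9:123462070-123462099, plus strand: TTCACCCACTAATAgGGAACGTGAGCTGGG
Gm15564, chr16:35981745-35981774, minus strand: TTCACCCACTAATAgGGAACGTGAGCTGGG
AA474408, chr7:110059687-110059716, minus strand: TTCACCCACTAATAaGGAACGTGAGCTGGG
No 25-base word of the Lars2 exons occurred in the annotated 18S gene, mt-Rnr1 or mt-Rnr2, and the 28S sequence was not analysed here. The counts are per gene, so where along Lars2 the input reads lie is not known, and their source was not tested.

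Gm15564 took 8.55 to 10.7 counts for every 100 of Lars2. Across the 6 input libraries, log2 counts of Lars2 and Gm15564 had Pearson r = 0.84 (exact permutation p = 0.0444, adjusted p = 0.133 over 3 relations) and Spearman rho = 0.77 (exact permutation p = 0.103, adjusted p = 0.308), and r was 0.46 without the 2 libraries farthest from the Lars2 median. With the 18S gene, r was 0.56 (exact permutation p = 0.257, adjusted p = 0.385) and rho 0.26 (exact permutation p = 0.658, adjusted p = 0.919), and r was 0.52 without those 2 libraries. With Alb, r was 0.38 (exact permutation p = 0.412, adjusted p = 0.412) and rho 0.09 (exact permutation p = 0.919, adjusted p = 0.919), and r was −0.25 without them. These libraries also share depth, so none of the 3 relations is separated from it.

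Between genotypes, footprints of the cytosolic members lay slightly lower in KO in nearly every case, whereas the mitochondrial members lay on both sides of 0. The KO minus WT difference in RPF was below 0 for 19 of 20 cytosolic members, with a median of −0.17 log2 units, and for 6 of 14 mitochondrial members, with a median of 0.02. Over all 8994 genes tested it was below 0 for 54% and had a median of −0.03. Among genes that averaged at least 50, which keeps all 20 cytosolic members, it was below 0 for 59.5%. By litter, 15, 16 and 17 of 20 cytosolic members were below 0, against 55.6%, 52.2% and 51.7% of all genes. No member passed an adjusted p of 0.05 (limma), where the background was 0.489% of genes, 44 in all, 236 with the replicate block of litter and 66 with edgeR on recovered reads, which called 0 members too. The cytosolic median was −0.11 without KO replicate 1, −0.11 without WT replicate 2 and −0.22 without WT replicate 1, and the count below 0 was 15 without WT replicate 3.

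At an unadjusted p under 0.05, 1 member was higher and 1 lower of 35 tested, where 5.4% and 7.99% of all genes were. Wars2, with 3 to 22 RPF reads per library, was too low to be tested in RPF and TE. The 3 KO values all lay below the 3 WT values for 8 of 20 cytosolic members, Farsa, Hars, Mars, Nars, Rars, Sars, Wars and Yars, and for 0 of 15 mitochondrial ones including Lars2, against 12.9% of genes. They all lay above for 1 mitochondrial member, Sars2, and 0 cytosolic ones, against 6.97%. KO was below WT in all 3 litters for 11 cytosolic members and 1 mitochondrial member, against 23.8% of genes. Members share control mice and library depth, so these counts are not independent.

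**Figure D3:**
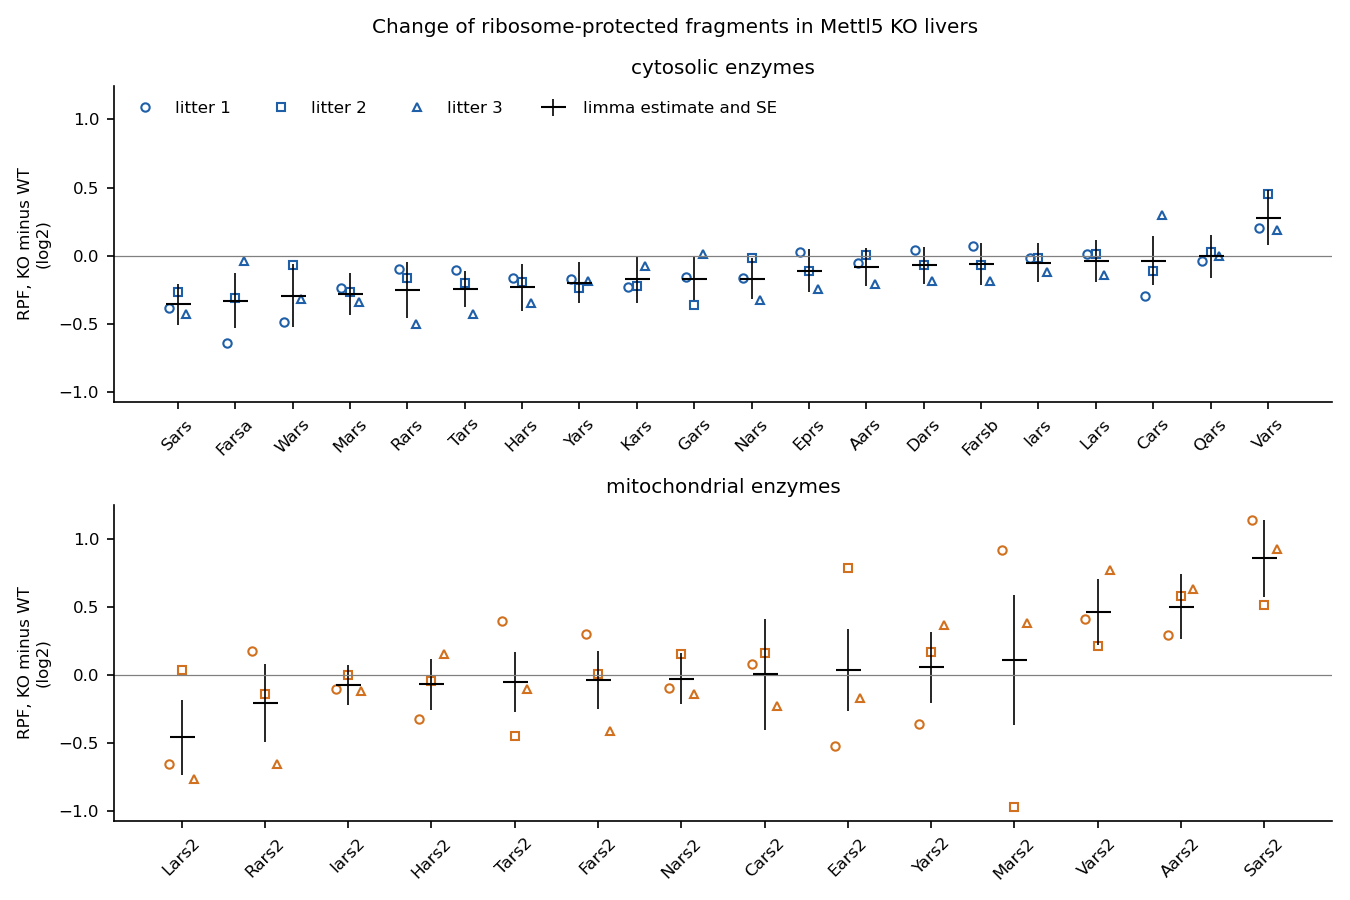
RPF difference, KO minus WT on the log2 scale, for the tested synthetases, 1 mitochondrial member not drawn (open symbols, 1 per litter; black bar, limma estimate with its SE), cytosolic above and mitochondrial below. All cytosolic estimates except that of Vars lie below 0, and Sars2, Aars2 and Vars2 stand highest among the mitochondrial members.

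Sars2, the mitochondrial seryl enzyme, had the smallest p of the members in RPF. Its normalized RPF reads were 20.0, 30.7 and 23.7 in WT and 45.2, 44.3 and 45.9 in KO, from 23 to 72 reads per library. Every KO value was above every WT value. The log2 difference was 0.86 with SE 0.28 (adjusted p = 0.177, limma), higher in 3 of 3 litters. Its input was 12.8, 20.4 and 21.0 in WT and 25.7, 31.9 and 22.4 in KO, also without overlap, from 7 to 39 reads. That difference was 0.57 with SE 0.36 (adjusted p = 0.999, edgeR), the smallest p of the members in input, and TE per length in WT was at the level of the median gene (−0.01).

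Sars, the cytosolic seryl enzyme, had the lowest RPF difference of the cytosolic members. Its normalized RPF reads were 418, 369 and 378 in WT and 320, 307 and 281 in KO. The genotypes did not overlap, and the log2 difference was −0.36 with SE 0.15 (adjusted p = 0.315, limma). Its input was 182, 141 and 205 in WT and 178, 201 and 189 in KO, with overlap. Its TE difference was −0.48 with SE 0.21 (adjusted p = 0.998, limma), below 0 in 3 of 3 litters and the smallest p of the members in TE. Serine was the amino acid whose 2 enzymes lay farthest apart in RPF difference. In 14 of 15 pairs of cytosolic and mitochondrial genes the mitochondrial member had the higher RPF difference, the exception being Iars and Iars2 (−0.05 and −0.08). These pairs leave out Lars and Lars2, which also went the other way (−0.04 and −0.46), and Wars with the untested Wars2. Farsa and Farsb were each paired with Fars2. With GC and length trends removed, the count was 10 of 15.

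Aars2, the mitochondrial alanyl enzyme, had 53.1, 69.1 and 79.4 normalized RPF reads in WT and 65.3, 103.9 and 123.3 in KO. KO was the higher in each litter although the groups overlapped, with a log2 difference of 0.50 and SE 0.24 (adjusted p = 0.376, limma). Its input, 97.2, 59.6 and 83.9 in WT and 78.9, 83.7 and 81.6 in KO, showed no direction, and its TE difference was 0.45 with SE 0.34 (adjusted p = 0.998, limma). Without 1 mouse its RPF difference ranged from 0.31 (without KO replicate 3) to 0.76 (without KO replicate 1), and its TE difference from 0.14 (without WT replicate 1) to 0.69 (without KO replicate 1). Vars2 had 45.3, 75.9 and 68.6 in WT and 60.5, 87.9 and 117.5 in KO, an RPF difference of 0.46 (adjusted p = 0.425, limma) that was above 0 in 3 of 3 litters. Vars was the only cytosolic member above 0 in RPF, with 268, 300.3 and 380 in WT and 309, 411 and 432 in KO. Its difference was 0.28, with KO above WT in each litter.

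**Figure D4:**
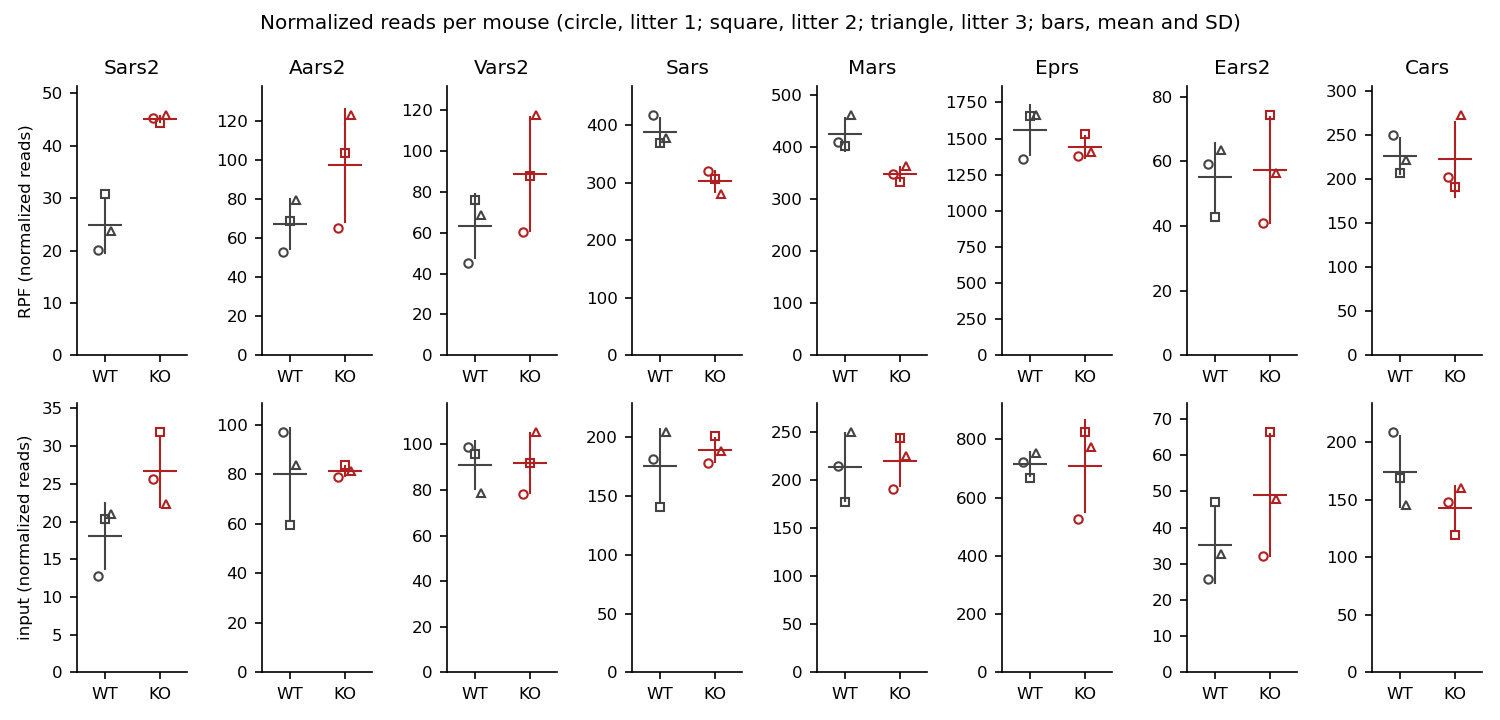
Normalized reads in RPF (top) and input (bottom) for 8 synthetases in each mouse (circle, litter 1; square, litter 2; triangle, litter 3; bars, mean and SD of 3 mice; all axes start at 0). Sars2 is higher in every KO mouse in both assays, and Sars and Mars are lower in every KO mouse in RPF and overlap in input.

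Mars, the cytosolic methionyl enzyme of the MSC, had 410, 402 and 463 normalized RPF reads in WT and 348, 334 and 364 in KO, without overlap. Its input was 215, 177 and 250.4 in WT and 191, 245 and 225 in KO. Its TE difference of −0.33 with SE 0.22 (adjusted p = 0.998, limma) had the next smallest p in TE, and its RPF difference was −0.28 (adjusted p = 0.439, limma). The 8 MSC members were all below 0 in RPF with a median of −0.09, and the 12 free members had 11 below 0 and a median of −0.18. The 3 largest negative values of the cytosolic class, those of Sars, Farsa (−0.33) and Wars (−0.29), belonged to free enzymes. Lars2 itself had an RPF difference of −0.46 with SE 0.28 and an adjusted p of 0.4999 (limma), from normalized values of 53.1, 52.0 and 51.1 in WT and 33.4, 53.5 and 29.6 in KO.

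In input, 36 members were tested and 0 passed an adjusted p of 0.05 (edgeR), where the background was 0%, 0 of 10057 genes. DESeq2 called 0 members and 1 gene in all. At an unadjusted p under 0.05 there were again 0 members, against 3.46% of genes (1.97% higher and 1.49% lower). Cytosolic and mitochondrial medians were −0.06 and 0.03 log2 units, beside −0.00 over all genes, and 13 of 20 cytosolic members were below 0, where 50% of genes were. The groups did not overlap for Sars2, higher in KO, where 3.65% of genes were, and for 0 members lower in KO, against 5.6%. After Sars2, the smallest p belonged to Cars, the cysteinyl enzyme, with 209, 169 and 146 normalized reads in WT and 148, 119.6 and 159.9 in KO (−0.26, SE 0.18, adjusted p = 0.999, edgeR). Ears2, the mitochondrial glutamyl enzyme, followed with 25.7, 47.0 and 32.8 in WT and 32.2, 66.5 and 48.0 in KO (0.45, SE 0.32, adjusted p = 0.999, edgeR). Cars had the opposite sign in litter 3, whereas Ears2 was higher in KO in all 3 litters with overlapping groups. Their differences were lowest in size without 1 mouse at −0.11 for Cars (without WT replicate 1) and 0.17 for Ears2 (without KO replicate 2), and highest at −0.38 (without WT replicate 3) and 0.72 (without KO replicate 1).

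In TE, 0 of 35 members passed (limma), where the background was again 0%, and edgeR on recovered reads also called 0. At an unadjusted p under 0.05, 1 member was lower and 0 were higher, against 2.61% and 2.09% of genes, 4.7% in all. The cytosolic median was −0.07 and the mitochondrial median 0.00, beside −0.01 over all genes, and 14 of 20 and 7 of 14 members were below 0, where 51.3% of genes were. By litter, the cytosolic minus mitochondrial median of these KO minus WT differences was −0.02, −0.11 and −0.30 in TE, and −0.36, −0.19 and −0.07 in RPF. It was below 0 in each litter in both quantities, and the litter with the widest gap in RPF had the narrowest in TE. The direction in TE depended on the summary. From the class medians of TE levels given above, the class difference was higher in KO, 0.16 ± 0.14 against 0.06 ± 0.20 in WT (SD).

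The members with the highest RPF differences were also those with the most GC-rich coding sequences. Sars2, Aars2, Vars2 and Vars have 61.1%, 60.9%, 60.2% and 60.1% GC, against a median of 52.0% over the cytosolic members, 55.4% over the mitochondrial ones and 52.8% over all genes. Over the 34 tested members without Lars2, GC content and RPF difference had Pearson r = 0.59 and Spearman rho = 0.41, and over 8985 genes r = 0.43 and rho = 0.46. These values are a description across genes that share the same libraries. When trends with GC content and length were removed from each library, r over the members was 0.09 and rho −0.12. The removal itself takes this relation out over all genes, so these small values are not a further result. The differences of Sars2, Aars2, Vars2 and Vars then were 0.61, 0.23, 0.21 and 0.02, and those of Sars, Mars and Farsa −0.35, −0.33 and −0.46, all with adjusted p above 0.05 (limma). The cytosolic members then had 15 of 20 below 0 and a median of −0.11, beside 53.6% and −0.02 over all genes. The MSC members had 5 of 8 below 0 with a median of −0.01, and the free members 10 of 12 with a median of −0.16.

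**Figure D5:**
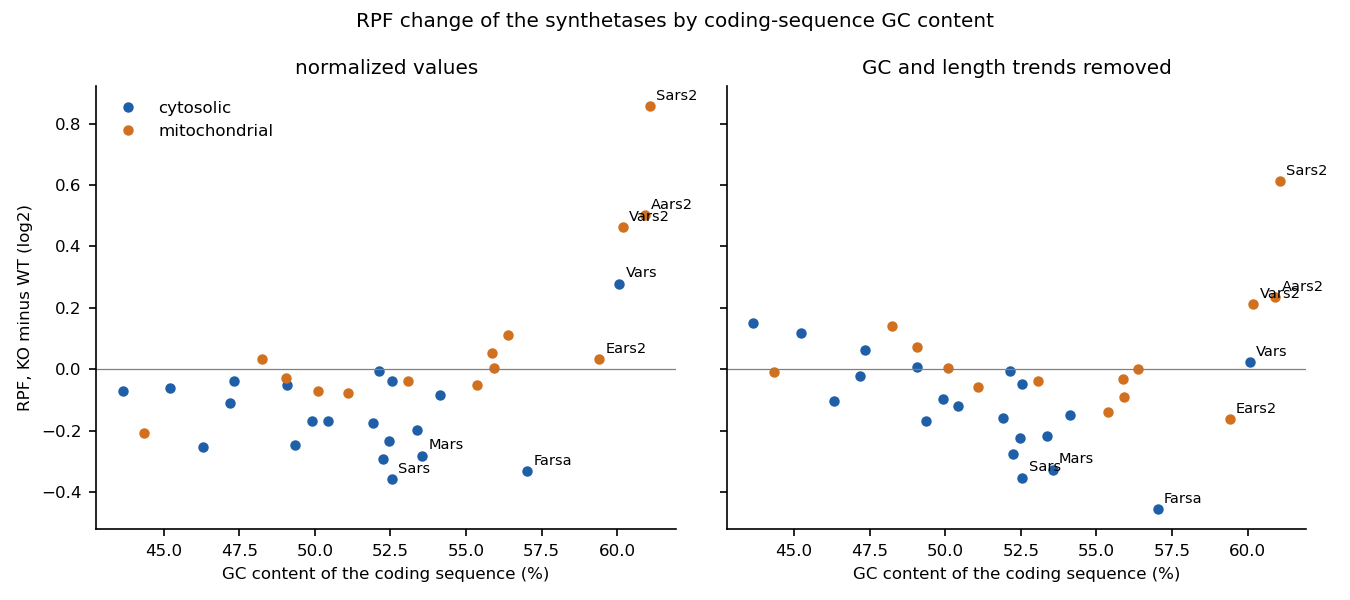
RPF difference (KO minus WT, log2) of each synthetase without Lars2 against the GC content of its coding sequence, as measured (left) and with GC and length trends removed from each library (right). Sars2, Aars2, Vars2 and Vars, at 60.1% to 61.1% GC, are highest on the left, and Vars lies near 0 on the right.

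Genes around the synthetases were taken from lists of known function. Scaffold proteins and paralogs of the synthetases (Aimp1, Aimp2, Eef1e1, Tarsl2, Aarsd1 and Prorsd1) had 5 of 5 tested members below 0 in RPF, with a median of −0.18, and none passed the test. Of all genes, 54% were below 0 in RPF. Other genes of tRNA charging and editing had 9 of 11 above 0, with a median of 0.12. Among them Qrsl1, a subunit of the mitochondrial amidotransferase that makes glutaminyl-tRNA in the absence of a mitochondrial glutaminyl enzyme, had 0.52 (adjusted p = 0.479, limma). The mitochondrial translation factors had 8 of 10 below 0, with a median of −0.15, and Tsfm, the nucleotide exchange factor of the mitochondrial elongation factor Tu, had 0.48 (adjusted p = 0.323, limma).

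Of 20 amino acid response genes, whose expression is known to follow ATF4, 11 could be tested in RPF. The differences were above 0 for 10 of them, with a median of 0.29, where 54% of all genes were below 0. In input 6 of 10 were above 0 with a median of 0.09, and in TE 7 of 11 with a median of 0.12. GC and length trends were not removed from these values. Atf4 had 0.29 with SE 0.18 (adjusted p = 0.495, limma), Slc7a5, a leucine transporter, 1.11 with SE 0.49 (adjusted p = 0.339, limma), and Psph, the last enzyme of serine synthesis, −0.94 with SE 0.38 (adjusted p = 0.295, limma). None passed the test.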

How the data were processed

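Input and RPF libraries of 6 mouse livers were analysed from a table of counts and a table of normalized values. Per the labels and the study's methods, reads were aligned to mm10 with STAR 2.7.3a, and uniquely mapped input read pairs were counted over exons by strand with featureCounts (version 1.6.0 per the labels, 2.0.3 in the file header). RPF used the first read at 25 to 34 nt after rRNA removal, mapped by RiboToolkit to a single location, without duplicate removal. The counts were deposited as whole numbers. The signal in the authors' deposited table is reads divided by 1 factor per library, without gene length. Whole reads, within a tolerance of 0.01 reads, came out for 100% of values in all 12 columns, and recovered input reads equalled the counts in 100% of genes, so edgeR was also run on recovered reads. It called 66 genes in RPF and 0 members. The authors' fold change, p-value and adjusted p-value columns were not used. No per-sample column was left unused.

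Groups came from the labels, and litters were taken from the replicate number in the sample titles. Input was tested with edgeR 4.0.16 (TMM, filterByExpr, robust quasi-likelihood, R 4.3.3). For RPF and TE, limma 3.58.1 (trend and robust) was fitted with 4 group means to log2(value + 1). Fold changes on this scale understate those of low genes. Genes that averaged 10 or more over the input columns and over the RPF columns were kept. The limma fit held input and RPF libraries together, with a common variance per gene. Its SE and p-values for RPF therefore also carry the spread of input. It treated the input and RPF libraries of the same liver as independent, so their pairing did not enter the TE test. SE of edgeR is the fold change over the square root of F. All p-values are two-sided with Benjamini-Hochberg adjustment over all genes. Levels are normalized reads per kb of annotated exon (input) or of the longest coding sequence (RPF). Coordinates and sequences are from GENCODE M21 and RefSeq on GRCm38 (mm10). Coding sequences were found for 10594 genes of the table and all 36 members. Scripts were tested on simulated data. Alternatives included DESeq2 1.42.0, other filters, pseudocounts of 0.1 and 5, GC trend removal, the replicate block and leaving out mice.

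Members and lists were chosen with earlier results of these data known. All members enter the counts and medians, and the values of 1 are not reported here. Full values were given for Lars2, the 3 smallest p in each comparison and the 2 highest and 2 lowest TE levels of each class in WT; values of Vars2 and Vars in RPF and of the genes in the last paragraphs were added after they were seen. The sample titles number the mice and name no litter. Mice with the same number were taken as littermates and paired. Their deviations from group means correlated within litters (input 0.0816, 0.127 and 0.100, RPF 0.242, 0.144 and 0.195) more than between them (−0.117 to 0.0169 and −0.239 to 0.0813). Deviations from the mean of 3 mice sum to 0, so higher values within litters lower those between them. This comparison cannot tell whether mice with the same number were littermates. The study states no litter term, so unblocked fits come first.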

Additional observations from a re-analysis of the deposited data

How the results depend on the processing

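The count of members past the threshold was 0 in input, RPF and TE under all 11, 15 and 15 alternatives run, including the replicate block, which changed no call of a member. It took all-gene counts to 2 in input, 236 in RPF and 1 in TE. All-gene counts ranged from 0 to 30, 0 to 236 and 0 to 1. In input, 30 genes passed with no count filter, 21 without KO replicate 2 and 5 without KO replicate 3. In RPF, beside 44, they numbered 226, 0 and 11 without KO replicates 1, 2 and 3, 28, 9 and 16 without WT replicates 1, 2 and 3, 66 with edgeR on recovered reads and 4 with GC and length trends removed. The smallest adjusted p of any member was 0.0991, for Sars2 in RPF with edgeR on recovered reads. Cytosolic members below 0 in RPF numbered 15 to 19 without 1 mouse.

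The Lars2 difference changed sign without KO replicate 1 and without WT replicate 1 in input (range without 1 mouse −0.27 to 0.19), and without KO replicate 3 in TE (range −0.56 to 0.067). The class difference in change ranged without 1 mouse from −0.18 to −0.0020 in input, −0.23 to −0.11 in RPF and −0.23 to 0.059 in TE.

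The class gap in levels moved beyond its SD as follows. Without length correction it was 1.66 (input, WT), 0.50 (TE, WT) and 0.36 (TE, KO). With means over members it was 2.19 (input, WT) and 2.13 (RPF, KO). With members at 10 reads or more in every library, which left 20 cytosolic and 10 mitochondrial ones, it was 1.41 and 1.39 (input, WT and KO), 1.30 and 1.17 (RPF). With transcript length, chosen after seeing the data, as was the count of pairs with GC trends removed, it was 1.54 and 1.51 (input) and 0.39 (TE, WT). Without 1 mouse it stayed at 1.76 to 2.01 in input, 1.87 to 2.47 in RPF and −0.05 to 0.23 in TE. Without 1 mouse, the input difference ranged from 0.17 to 0.72 for Ears2 and from −0.38 to −0.11 for Cars. Of single genes, the alternatives were run for Lars2, Sars2, Sars, Aars2, Mars, Cars and Ears2, in the comparisons where each is given in full, and of these Lars2 alone changed direction. With GC and length trends removed, other members also turned in RPF. Dars went from −0.07 to 0.15, Farsb from −0.06 to 0.12, Lars from −0.04 to 0.06 and Iars from −0.05 to 0.0057. Of the mitochondrial members, Hars2 and Nars2 turned from below to above 0. Ears2, Yars2, Cars2 and Mars2 turned from above to below 0. Depth limits the mitochondrial members, with 4 to 314 input reads per gene and library outside Lars2.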
